A study of Mus musculus with 2 samples.

Results

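The GATA family and its FOG cofactors comprise 8 genes here, the transcription factors Gata1, Gata2, Gata3, Gata4, Gata5 and Gata6 and the cofactors Zfpm1 (FOG1) and Zfpm2 (FOG2). They were taken by symbol from 43346 annotated genes, together with their 24 annotated transcripts, and all 8 were found in both libraries' tables. The libraries are 2 biological replicates of G1E, an immortalised mouse erythroid progenitor line labelled as Gata1-negative, male, of strain C57BL/6J and of postnatal stage (age 0 day). They form 1 group without treatment, and each was made from 1 ng of total RNA of over 200 nucleotides. Both come from 1 cell line, and no library of cells with intact Gata1 was compared, so no level below is set against a state with the gene.

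GATA factors bind the sequence GATA through a pair of zinc fingers, of which the C-terminal one makes most of the contact with DNA. In blood, GATA2 serves stem cells and early progenitors, and GATA1 takes its place as red cells mature and represses the Gata2 gene. FOG1 binds the N-terminal finger of GATA1 and brings in the NuRD corepressor complex. GATA3 is known from T cells, GATA4, GATA5 and GATA6 from heart and endoderm, and FOG2 from heart and gonad.

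The sequences that separate the genes and starts described below come first. The coding sequence of the C-terminal finger of each GATA gene with counts is shown because this finger makes most of the contact with DNA. It was read from the full-length GENCODE M21 transcripts of Gata1 (chromosome X), Gata2 (chromosome 6) and Gata3 (chromosome 2), located by the spacing of its cysteine codons, and capitals mark bases that differ from Gata2.
Gata2: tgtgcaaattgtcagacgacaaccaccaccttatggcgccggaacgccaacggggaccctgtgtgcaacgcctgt
Gata1: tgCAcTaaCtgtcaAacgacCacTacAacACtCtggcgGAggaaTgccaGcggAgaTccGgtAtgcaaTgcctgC
Gata3: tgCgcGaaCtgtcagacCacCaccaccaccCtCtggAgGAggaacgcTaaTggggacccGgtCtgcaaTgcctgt
Over these 75 bases, Gata1 differed from Gata2 at 21 and Gata3 differed from Gata2 at 15. In the N-terminal finger, also 75 bases long, Gata1 differed from Gata2 at 16 and Gata3 at 15. The longest identical run between the whole transcripts was 23 bases for Gata1 and Gata2 and 17 for Gata2 and Gata3. The deposited posterior SD of the gene-level count was 0.00 for all 8 genes in both libraries, so the tables record no uncertainty in sharing reads with other genes. In bulk RNA, fewer cells with a transcript and less of it per cell cannot be told apart.

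The 250 bases before the RefSeq starts of Gata1 and of both Gata2 transcripts are shown because transcript choice is described at these starts (GRCm38.p6, RefSeq; 5 of the 8 genes matched, with 6 windows). Capitals mark GATA and CCAAT on either strand (TATC and ATTGG when read on the reverse strand), and no 2 matches overlapped. The windows are chrX:7967911-7968160 on the minus strand for Gata1, and chr6:88193641-88193890 and chr6:88198414-88198663 on the plus strand for the distal and the proximal start of Gata2.
Gata1: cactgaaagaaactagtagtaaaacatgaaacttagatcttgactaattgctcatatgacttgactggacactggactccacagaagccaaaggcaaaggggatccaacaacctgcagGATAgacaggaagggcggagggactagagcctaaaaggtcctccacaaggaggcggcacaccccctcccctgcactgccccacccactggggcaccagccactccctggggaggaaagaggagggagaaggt
Gata2 distal: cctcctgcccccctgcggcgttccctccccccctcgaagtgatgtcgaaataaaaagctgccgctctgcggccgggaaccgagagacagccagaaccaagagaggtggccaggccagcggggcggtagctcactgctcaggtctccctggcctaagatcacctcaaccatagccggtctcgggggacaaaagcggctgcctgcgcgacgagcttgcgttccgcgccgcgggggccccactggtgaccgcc
Gata2 proximal: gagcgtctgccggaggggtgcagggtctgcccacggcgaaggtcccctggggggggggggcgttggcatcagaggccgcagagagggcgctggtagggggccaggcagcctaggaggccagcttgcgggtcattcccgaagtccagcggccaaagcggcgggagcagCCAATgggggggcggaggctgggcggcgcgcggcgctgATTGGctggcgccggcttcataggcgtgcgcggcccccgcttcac
The window of Gata1 held 1 GATA, 132 bases before the start, and both windows of Gata2 held none, whereas 53.6% of 32851 promoter windows of this length held GATA on either strand. The GC content was 54.0% for Gata1 and 67.2% and 74.0% for the distal and proximal windows of Gata2. The median over all windows was 52.4%, and the shares of all windows given here were not matched for GC content. The fuller motifs of the blood GATA factors, GATA preceded by A or T and followed by A or G, were on neither strand in any of the 6 windows and were in 26.5% of all windows. The proximal window of Gata2 held CCAAT on both strands, at 83 and 45 bases before the start, and the distal window held none, against 33.8% of all windows with CCAAT on either strand. CCAAT was searched after these sequences had been seen.

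Gata1, the gene named as missing in this line, had reads in both libraries (chrX:7959260-7978071, minus strand; all gene positions are those of GENCODE M21 on mm10). It had 798 estimated counts in replicate 1 and 649 in replicate 2, which correspond to 21.96 and 12.51 TPM (a level relative to transcript length and to the library's total). The credibility intervals deposited with these values were 19.8 to 23.2 and 11.4 to 13.3 TPM (at a level the files do not state). Gata1 RNA was therefore not absent, and it ranked 1828 and 2119 by TPM among 21461 nuclear protein-coding genes. The gene-level count does not show which exons the reads cover, and the labels do not state which part of Gata1 is disrupted. These counts do not check the label.

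Nearly all Gata1 reads were assigned to its full-length coding transcript. The transcript that starts at the Gata1 window shown above, with 6 exons (chrX:7959260-7967910), took 790.78 and 647.97 counts. It had 20.85 and 12.39 TPM, or 97.0% ± 2.90 of the gene's TPM (SD, n = 2). The other annotated Gata1 transcripts end in exon 2 or exon 3 of this one. Reads from its exons 4 to 6 could thus be assigned to it alone, so the share does not show an intact full-length RNA. A short incomplete model has a 208-base opening exon in the first intron of the full-length transcript, and its other 213 bases lie in exon 2. It took 7.22 counts in replicate 1 and 1.03 in replicate 2, and its TPM intervals of 0.453 to 2.08 and 0.00348 to 0.548 overlapped. A transcript whose 3 upstream exons begin 10161 bases before the full-length one had 0 counts in both libraries, where 3 counts is the limit that 0 allows. An upstream start of Gata1 is known from mouse testis. The share of the main transcript by counts, 99.1% and 99.8%, gave an adjusted p of 0.108 between the libraries (Fisher's exact test, two-sided, over 4 genes).

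**Figure D1:**
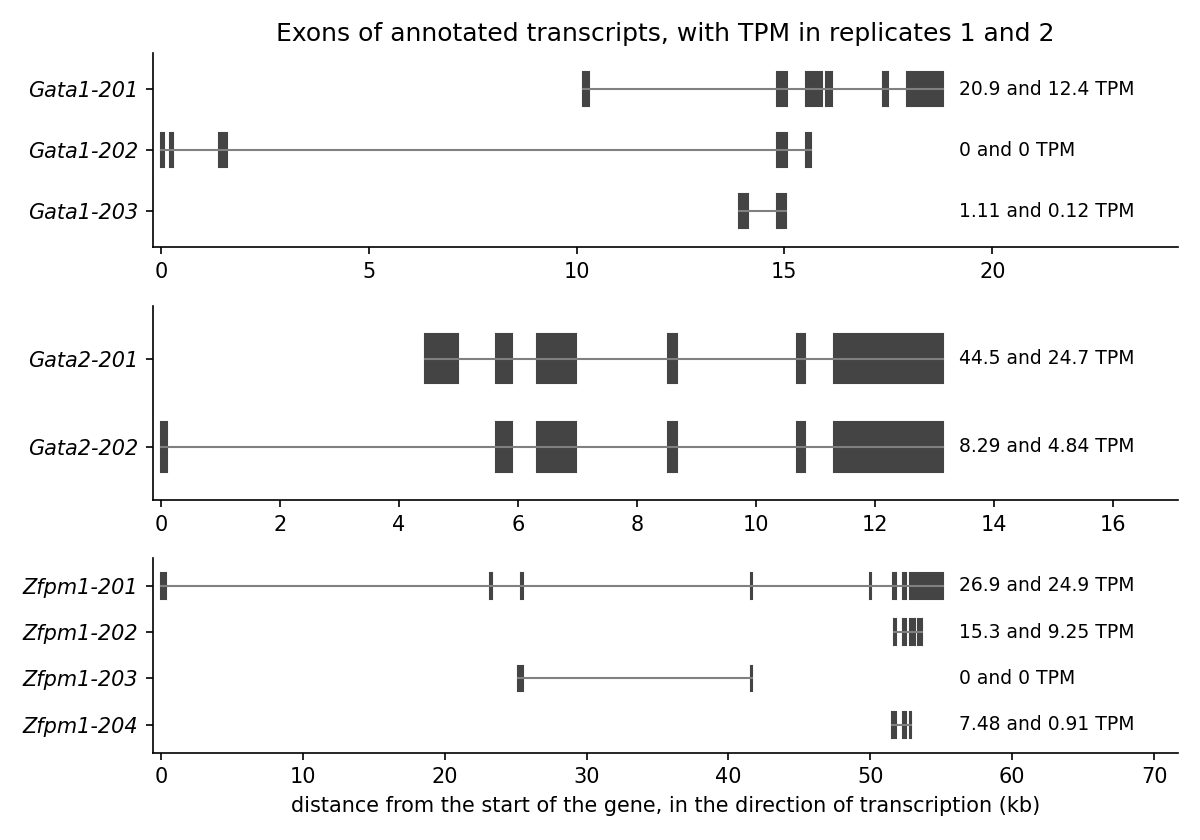
Exons (boxes) of the annotated transcripts of Gata1, Gata2 and Zfpm1 in GENCODE M21, drawn to scale from the start of each gene in kilobases, with the TPM in replicates 1 and 2 at the right. The Gata1 transcript with upstream exons had 0 TPM in both libraries, and the proximal (44.5 and 24.67 TPM) and distal (8.29 and 4.84 TPM) transcripts of Gata2 differ in their opening exon.

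Gata2 was the most abundant GATA factor, at 52.8 TPM in replicate 1 and 29.51 TPM in replicate 2 (3483 and 2690 counts; chr6:88193891-88207032, plus strand). Its deposited intervals, 49.4 to 52.8 and 27.7 to 29.8 TPM, lay above those of Gata1 in the same library. It ranked 625 and 734 among nuclear protein-coding genes. The TPM of Gata2 over that of Gata1 was 2.40 in replicate 1 and 2.36 in replicate 2, with exact 95% Clopper-Pearson bounds of 2.23 and 2.60 for replicate 1 and 2.16 and 2.57 for replicate 2. These intervals cover counting error only. The pair thus kept almost the same ratio in both libraries while each gene's TPM differed. As the median gene also had a 1.55-fold higher TPM in replicate 1, the steady ratio is not read as a trait of this pair. With 2 libraries, no two-sided sign-flip p can fall below 0.5.

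Most of Gata2 was assigned to the proximal start. The proximal transcript had 44.5 TPM in replicate 1 (interval 39.1 to 46.2) and 24.67 in replicate 2 (20.5 to 28.7). The distal transcript, which starts at the distal window, had 8.29 TPM (5.09 to 11.9) and 4.84 TPM (0.000396 to 7.99). The distal interval of replicate 2 reached down almost to 0, while that of replicate 1 stayed clear of 0. The posterior SDs of the distal counts, 115.83 of 531.12 counts and 203.05 of 428.62 counts, stand beside transcripts that share all exons but the opening one, apart from 2 bases at the end. The distal exon is known from mouse haematopoietic progenitors, and the proximal one is in wider use.

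The proximal share was 83.9% ± 0.495 of the gene's TPM (SD, n = 2), and Fisher's exact test on rounded counts gave an adjusted p of 0.457, but that SD and that test leave out the uncertainty of assigning reads. In GENCODE M21 the proximal transcript is 330 bases longer than in the deposited tables (3571 against 3241 bases) and starts at position 88198334 of chromosome 6 in place of the RefSeq start at 88198664. The proximal window shown above therefore lies inside the opening exon of that longer model. The part of these 330 bases in the shares was not tested.

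**Figure D2:**
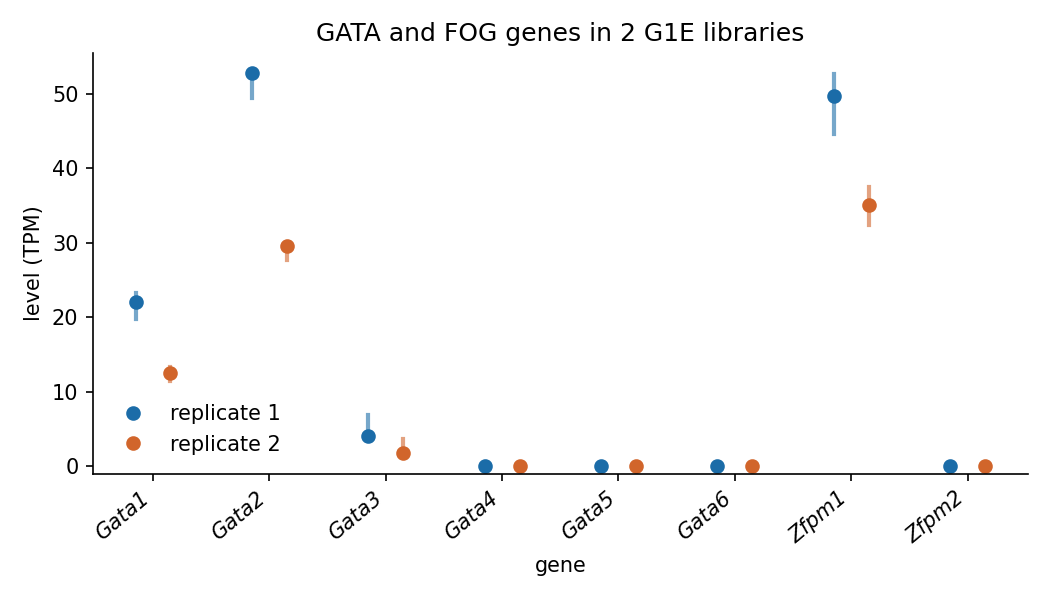
Level of each gene in TPM (points) with the deposited credibility interval (lines) in replicate 1 and replicate 2. Gata2 and Zfpm1 were highest, at 29.51 to 52.8 TPM, Gata1 lay below them in both libraries, Gata3 was at 4.0 and 1.81 TPM, and the other 4 genes had 0 TPM.

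Zfpm1, the gene of FOG1, had a level near that of Gata2 (chr8:122282141-122337251, plus strand). It had 49.63 TPM in replicate 1 (44.6 to 52.6, from 2182 counts) and 35.04 TPM in replicate 2 (32.3 to 37.4, from 2603 counts). The TPM of Zfpm1 over that of Gata2 was 0.940 in replicate 1 (0.891 to 0.992) and 1.19 in replicate 2 (1.12 to 1.25). The order of this pair thus turned between the libraries, and their mean log2 difference of 0.08 ± 0.23 (SD, n = 2) was within the spread. Both lay above Gata1 in each library, Zfpm1 by 2.26-fold and 2.80-fold in gene-level TPM.

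The level of FOG1 coding RNA was lower than the gene total. The full-length transcript had 26.88 TPM (24.7 to 27.3) and 24.88 TPM (23.1 to 25.2), which was 54.2% and 71.0% of the gene's TPM. A non-coding model of 865 bases had 15.26 and 9.25 TPM, and another of 559 bases had 7.48 TPM (3.58 to 11.4) and 0.91 TPM (0.0803 to 3.24). Both short models overlap exons of the full-length transcript from exon 6 on. By counts the share of the 865-base model was 11.1% in replicate 1 and 7.75% in replicate 2, and that of the 559-base model 3.24% and 0.448%.

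The share of Zfpm1 counts on the full-length transcript differed between the libraries, at 85.6% and 91.8% (Fisher's exact test, two-sided, adjusted p = 4.05e-11 over 4 genes, counting error only). Among transcripts with a consensus coding sequence, Zfpm1 stood below Gata2 in each library, with Zfpm1 at 26.88 and 24.88 TPM and Gata2 at 52.79 and 29.51 TPM. The mean log2 difference of Zfpm1 minus Gata2 was then -0.59 ± 0.50 (SD, n = 2), and this setting was chosen after seeing the data. With the same setting Zfpm1 over Gata1 was 1.29 in replicate 1 and 2.01 in replicate 2.

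**Figure D3:**
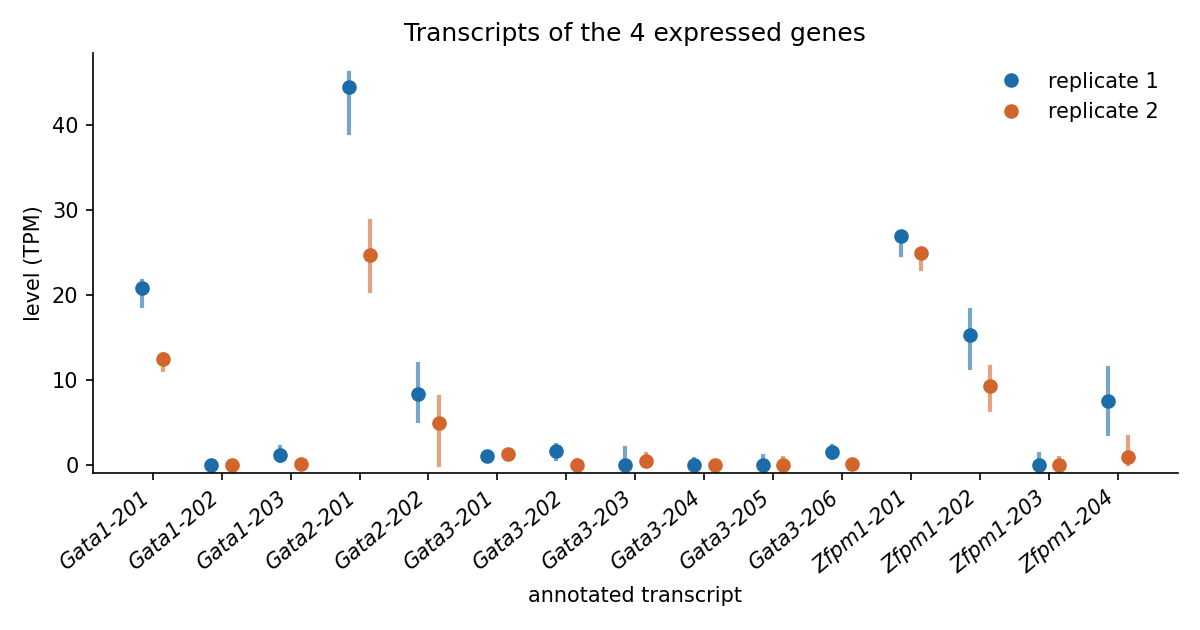
TPM of each annotated transcript of Gata1, Gata2, Gata3 and Zfpm1 (points) with deposited credibility intervals (lines) in replicate 1 and replicate 2. The interval of the distal Gata2 transcript in replicate 2 reaches almost to 0, and full-length Zfpm1 lies at 26.88 and 24.88 TPM while its 559-base model is at 7.48 and 0.91 TPM.

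Gata3 was low, and much of its gene-level TPM lay on short transcripts in replicate 1 (chr2:9857078-9890034, minus strand). It had 102 counts in replicate 1 and 120 in replicate 2, yet 4.0 TPM (3.57 to 6.82) and 1.81 TPM (1.70 to 3.63). The full-length transcript had 0.98 TPM (0.724 to 1.23) and 1.28 TPM (0.995 to 1.45), with overlapping intervals. In replicate 1 an incomplete coding model of 674 bases and a non-coding one of 731 bases had 1.59 and 1.43 TPM. These values came from 18.92 and 18.68 counts, and in replicate 2 the same models had 0.00 and 0.10 TPM. Another non-coding model, of 281 bases, had 0 counts in replicate 1. In replicate 2 it had 0.43 TPM from 1.99 counts, which was 23.66% of the gene's TPM. The share of counts on the full-length transcript was 62.7% and 96.7% (Fisher's exact test, adjusted p = 7.52e-11 over 4 genes, counting error only). Gata3 TPM was lower in replicate 2 although its count was not. The TPM of the median gene was also 1.55-fold higher in replicate 1. The parts of this shift and of the short transcripts were not tested. Gata1 exceeded Gata3 by 5.49-fold in replicate 1 (4.46 to 6.82) and 6.91-fold in replicate 2 (5.68 to 8.46), both in gene-level TPM. Over transcripts with a consensus coding sequence, which was chosen after seeing the data, the ratio was 21.3 in replicate 1 and 9.68 in replicate 2, so the library with the larger ratio turned.

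The other 4 genes had no reads. Gata4, Gata5, Gata6 and Zfpm2 had 0 counts in both libraries, which allows up to 0.0948 CPM (counts scaled to the library's total) in replicate 1 and 0.0739 CPM in replicate 2 at a limit of 3 counts, for counting error only. The upper bounds of the deposited TPM intervals were at most 0.0441 for Gata5, Gata6 and Zfpm2 and 0.604 for Gata4, whose lower bounds of 0.0619 and 0.0477 with 0 counts show that its interval does not rest on reads. In all, 11 of the 24 transcripts had any count. The order of the detected genes by mean TPM was Zfpm1 (42.3 ± 10.3), Gata2 (41.2 ± 16.5), Gata1 (17.2 ± 6.68) and Gata3 (2.91 ± 1.55; SD, n = 2 each). Of neighbours in this order, Zfpm1 and Gata2 did not differ beyond their spread, while Gata1 and Gata3 each lay below the gene before it in both libraries.

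Between the libraries, each of the 4 members tested differed by less than 2-fold once library composition was taken into account. The median gene had a TPM 1.55-fold higher in replicate 1, so counts were scaled by TMM (trimmed mean of M values) and compared by an exact binomial test, calling genes with a 2-fold ratio whose p, adjusted by Benjamini-Hochberg, was under 0.05. Of all 11902 genes with at least 10 counts, 7.32% were called, 5.12% higher in replicate 2 and 2.20% higher in replicate 1. Of these calls 69.9% were higher in replicate 2, against 27.9% with scaling to total counts and 0.309% with scaling to spike-ins. Of the 4 members tested, 0 were called, 2 passed the adjusted p alone (32.3% of all genes did) and 3 had an unadjusted p under 0.05 (41.3% of all genes). With only 4 tested, the 0 called is not read as a trait of the members. The test compares a pair of libraries and not conditions.

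The members did not move together. The ratio of replicate 2 over replicate 1 was 1.34 for Zfpm1 (95% interval 1.27 to 1.42, exact binomial adjusted p = 2.82e-22) and 0.867 for Gata2 (0.825 to 0.912, adjusted p = 4.12e-07). It was 0.913 for Gata1 (0.822 to 1.01, adjusted p = 0.184) and 1.32 for Gata3 (1.01 to 1.74, adjusted p = 0.109). The direction for Zfpm1 and Gata3 turned when libraries were scaled to total counts (log2 ratios of -0.10 and -0.12), where the median gene stood at -0.52. A negative binomial exact test (edgeR) called 0 of the 4, with 0 at an unadjusted p under 0.05, and 2.49% of all genes. Its dispersion came from the same 2 libraries taken as 1 group, a common coefficient of variation of 26.28%. The difference between the libraries thus enters the spread it is tested against, so 0 calls do not show that the members were alike. The median log2 ratio of the 4 members was 0.14, against 0.01 over all genes tested.

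**Figure D4:**
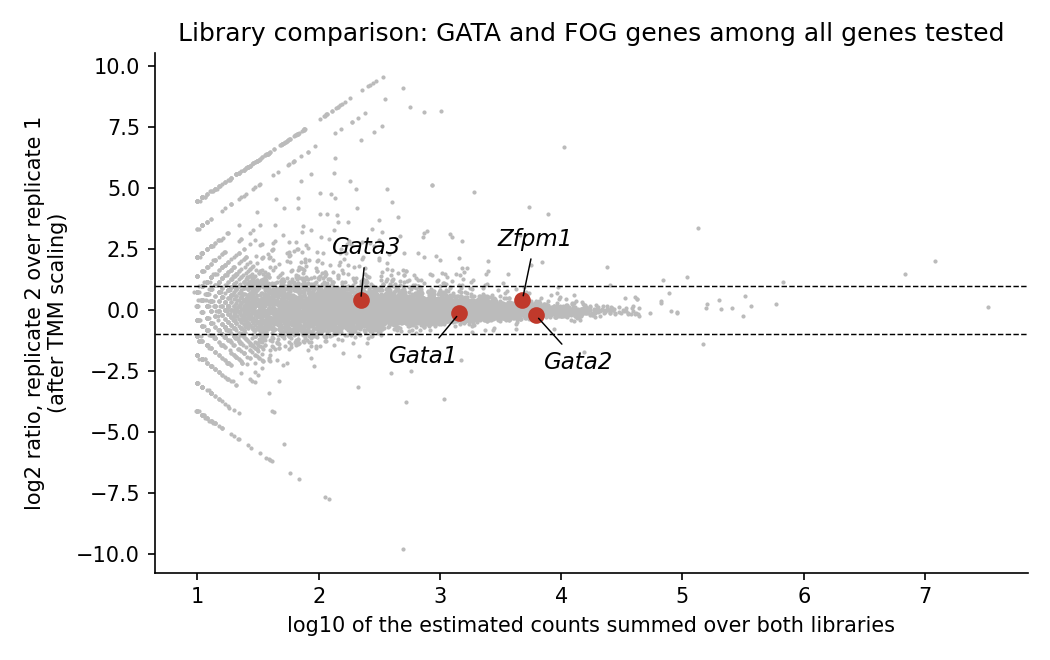
Log2 ratio of replicate 2 over replicate 1 after TMM scaling against the log10 of summed counts, for all genes tested (grey) and the 4 members with counts (red), with dashed lines at a 2-fold ratio. Zfpm1 (0.42) and Gata3 (0.40) lie above 0, which turns with scaling to total counts or spike-ins, and Gata1 (-0.13) and Gata2 (-0.21) below it, all inside the dashed lines.

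Partners that act with GATA and FOG proteins were mostly present. Over 5 lists, 37 of 43 distinct genes were detected at 1 TPM in both libraries, as were 8345 of 21461 nuclear protein-coding genes. Of 39 tested, 1 was called, Trps1, which had counts in replicate 2 only, against 7.32% of all genes tested. Their median log2 ratio was -0.03. With so few genes, the 0 or 1 called in each list is not read as a trait of these partners. All 15 NuRD and CtBP genes, the corepressors that FOG1 binds, were detected, and 0 were called by the exact binomial test, with a median log2 ratio of -0.01. Rbbp7, a histone-binding subunit, had 86.2 ± 22.9 TPM (SD, n = 2), Mbd2 72.0 ± 33.5, the metastasis-associated subunit Mta1 46.6 ± 13.5 and Gatad2b 43.1 ± 20.8. The lowest were Hdac1, a histone deacetylase (13.6 ± 3.57 TPM), Gatad2a (14.2 ± 4.89 TPM) and Mbd3 (6.69 ± 1.54 TPM). The NuRD scaffold Chd4 had 40.7 ± 11.8 TPM, close to the level of Zfpm1, and was named after its value was seen.

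Of the 12 genes of complexes that hold GATA factors, 11 were detected and 0 were called, with a median log2 ratio of -0.10. The repressor Gfi1b led with 97.3 ± 35.9 TPM (SD, n = 2), followed by Tcf12 (60.1 ± 22.8), Runx1 (35.3 ± 10.6) and the LIM-domain adaptor Lmo2 (33.0 ± 11.8). Fli1 (0.90 ± 0.17), Klf1 (12.3 ± 3.21) and the myeloid factor Spi1 (15.7 ± 7.06) were lowest. Spi1, whose protein binds and opposes GATA1, thus stood near the level of Gata1 itself. All 6 coactivators were detected, with 0 called and a median log2 ratio of -0.04, and among them were Med1 (30.7 ± 11.7 TPM, SD, n = 2), Ep300 (25.3 ± 5.06), Smarca4 (15.8 ± 6.11), Crebbp (18.38 and 11.68 TPM) and Brd3 (13.8 ± 5.25), the bromodomain protein that binds acetylated GATA1.

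The list of proteins that act on GATA protein stability or transport had 3 of 6 members detected and 0 of 3 tested called (median log2 ratio 0.06). Xpo1, a nuclear export receptor, had 36.8 ± 10.6 TPM (SD, n = 2), and Fbxw7, a ubiquitin ligase subunit for GATA2, had 2.53 ± 0.382 TPM. Hspa1a and Hspb1 had 0 counts, and Hspa1b, an inducible HSP70 gene, had 3 and 2 counts.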

How the data were processed

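The data are total RNA sequencing of 2 G1E libraries, used as 1 gene and 1 transcript table each. The deposited columns hold estimated counts (expected counts of reads per feature) without normalisation, TPM, FPKM and isoform shares as a percent of the gene's TPM, per the file headers. The deposited bounds are credibility intervals of TPM. The deposited file records name mm10 and GENCODE M4, and neither the quantifier nor its strand setting is given in these sources.

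Names and positions came from GENCODE M21 on the same assembly (42462 of 43346 genes matched), promoters from RefSeq. Depth was 31649878 and 40597614 estimated counts, 8513094 and 7669565 of them on nuclear protein-coding genes. The 97 spike-in and 26248 number-named entries stayed out of gene tests.

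Levels are TPM with the SD over 2 libraries, with a pseudocount of 1 on the log2 scale. Counts were rounded, scaled by TMM (edgeR 4.0.16, R 4.3.3) and compared by a two-sided exact binomial test over genes with at least 10 counts, adjusted by Benjamini-Hochberg over all. Intervals of ratios are exact 95% Clopper-Pearson. The comparison was also run on simulated counts with Poisson noise alone. That setting leaves out spread between libraries beyond counting error, so it does not check the calls made here. SciPy 1.17.1, DESeq2 1.42.0 (size factors) and matplotlib 3.10.9 were used besides. The labels do not say whether the replicates were separate cultures. The p-values of the exact binomial and Fisher tests cover counting error between these libraries and not the spread between cultures.

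The members, the 5 partner lists and the tests were chosen with earlier results of these data known. The text names all members, up to 4 highest and 3 lowest genes of each list, genes called between libraries (some genes of the lists are not reported here), neighbours within 5000 bases with at least 10 counts, and the 3 genes nearest in level to Gata1, Gata2 and Zfpm1. Alternatives were other scalings, filters, pseudocounts and estimates, and each library left out.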

Additional observations from a re-analysis of the deposited data

How the results depend on the processing

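No paired analysis was possible because the labels give 1 group. The number of members detected stayed between 3 and 4, with 3 at a threshold of 5 TPM. It was also 3 over transcripts with a consensus coding sequence only, where Gata3 dropped out. Without either library it was 4. The log2 difference of Gata2 minus Gata1 (1.20) was 1.25 with a pseudocount of 0.1 or 0. Over transcripts with a consensus coding sequence it was 1.24. It was 2.03 from CPM, which leaves out length, and 1.18 to 1.23 with a library left out. For Zfpm1 minus Gata2 it was -0.36 from CPM and -0.09 to 0.24 with a library left out. The main transcript share of Gata2 was 84.4% by counts and 83.6% to 84.3% with a library left out, and that of Gata1 95.0% to 99.1%.

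The number of genes called between the libraries (871) was 1417 with total counts (396 higher in replicate 2, 1021 in replicate 1), 11644 with spike-ins, 443 with a filter of 50 counts, 3848 without the fold limit and 296 by the negative binomial test. Of these settings, members were called with spike-ins (4, all higher in replicate 1) and without the fold limit (2, Gata2 and Zfpm1). Partner genes called (1) were 38 with spike-ins, 16 without the fold limit, and 0 with a filter of 50 counts or the negative binomial test. The ratios of Gata3 and Zfpm1 turned to -0.12 and -0.10 with total counts and -4.10 and -4.08 with spike-ins, where the median gene stood at -4.49. Spike-in totals were 514 and 10351 counts. The causes were not tested. With 2 libraries, spread cannot be told from a difference between cultures.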

Other observations

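Other genes with GATA-type zinc fingers were mostly expressed. Of 9 such genes, 5 of which are also on the NuRD list, 7 were detected (median log2 ratio of the 8 tested -0.11), with Mta1 (46.6 ± 13.5 TPM, SD, n = 2), Gatad2b (43.1 ± 20.8), Mta2 (31.6 ± 10.1) and Mta3 (29.9 ± 10.2) highest. Gatad2a had 14.2 ± 4.89 TPM. Trps1, a repressor known from bone and cartilage, was the only one called by the exact binomial test, with 0 counts in replicate 1 and 12 in replicate 2, which is at least 4.49-fold higher for replicate 2 when a floor of 3 counts per library stands for 0. With 0 counts in replicate 1, Trps1 entered the test through replicate 2 alone. Its call ended with a filter of 50 counts, a negative binomial test or scaling to spike-ins. Zglp1, a germ cell gene, had 0 and 1 count.

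All 8 listed markers of erythroid progenitors were detected, at a summed 856.8 and 529.6 TPM, and Gfi1b and Klf1 among them are also partner genes above. All 6 embryonic stem cell markers had 0 counts, and of 6 T cell markers 5 had 0 counts and Cd28 had 0 and 1, while Gata3 had 102 and 120. Of 6 mast cell markers, Cpa3 had 51.44 and 24.76 TPM, and Mcpt4, Cma1 and Mcpt8 had 0 counts. Of 7 endoderm and heart markers 5 had 0 counts, Sox17 had 10 and 9, and Foxa2 was called with 0 and 25, at least 9.36-fold higher for replicate 2 with the same floor, while Gata4 and Gata6 had 0. Of 6 megakaryocyte markers 3 were detected, at a summed 25.74 and 15.75 TPM for the list, with Gp1ba called (32 and 10 counts). Of 6 fibroblast and endothelial markers 3 had 0 counts, and Pdgfra was called with 11 and 0, at least 3.26-fold higher for replicate 1 with that floor. A filter of 50 counts left Foxa2, Gp1ba and Pdgfra untested, the negative binomial test called only Foxa2 of these, and scaling to spike-ins ended the call of Foxa2. Foxa2 and Pdgfra had 0 counts in 1 library, so they entered the test through the other alone.

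Of annotated genes that overlap a member or start within 5000 bases of it, 9230102O04Rik, on the same strand upstream of the full-length Gata3 transcript, was the only one with at least 10 counts. It had 28 and 31 counts, or 2.54 and 1.83 TPM, and lies within the Gata3 gene body, with a deposited posterior SD of 0.00 for its count in both libraries. The genes antisense to Gata3 and Gata5, Gm13256 and Gata5os, had 0 counts. By distance on the log2(TPM + 1) scale over 2 libraries, the genes nearest in level were Cdk13, Sgms1 and Rad50 for Gata1, Paxbp1, Arcn1 and Sdhc for Gata2, and Mat2a, Rpl36al and Ppib for Zfpm1, at distances of 0.0063 (Mat2a) to 0.042 (Sdhc).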
